A study of Mus musculus with 6 samples.

Results

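The genes described here make, sense, take up, move and export cholesterol in myeloid cells grown from mouse bone marrow. They are 35 genes listed by their roles: 18 enzymes from acetyl-CoA to cholesterol, 5 genes of the sterol sensor, 5 of uptake and intracellular transport, 5 of efflux, 1 of cholesterol ester storage and 1 of oxysterol synthesis. A member was measured where the array annotation gave a probe set to that gene alone, and of several such probe sets the one with the highest mean was kept. By this rule 32 of the 35 were measured, among 19938 genes in all. Acat2, Nr1h2 and Soat1 had no such probe set and were not analysed here.

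The comparison was between 3 sorted populations, with 2 arrays each. GM-BMDC were grown from marrow for 7 days with 25 ng/ml of GM-CSF and sorted as MHCIIhighF4/80low. The labels call them dendritic cells. GM-BMM came from the same kind of GM-CSF culture, sorted as MHCIIlowF4/80high, and M-BMM were grown for 7 days with 20% L cell conditioned medium as the source of M-CSF and sorted as CD11b+F4/80+. The labels call both of these macrophages. All groups were C57BL/6J mice labelled male, aged 6 to 10 weeks, with no gene altered, and all cultures shared a medium with 10% serum, which itself holds lipoprotein cholesterol. L cell conditioned medium also carries other secreted proteins. The labels call the arrays of a population biological replicates. They do not say whether marrow of several animals was pooled, or that replicates came from separate cultures. The p-values below therefore measure the spread between arrays.

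Cells obtain cholesterol by making it or by taking up lipoproteins. When sterol in the endoplasmic reticulum is scarce, SCAP escorts the SREBP transcription factors to the Golgi, where they are cut loose to switch on the synthesis genes. When sterol is plentiful, the INSIG proteins hold SCAP back, and oxysterols activate the LXR nuclear receptors, which raise the exporters ABCA1 and ABCG1, the acceptor apolipoprotein E, and MYLIP, which marks the LDL receptor for destruction. Macrophages that clear dead cells and lipoproteins are known for the LXR and efflux side of this system.

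Each value is a log2 signal from RMA, a method that removes background, brings all arrays to 1 common distribution and gives 1 value per probe set. A gene is called higher or lower where limma, fitted over all 19938 genes and all 6 arrays, gave a Benjamini-Hochberg adjusted p under 0.05. Brackets after a fold hold its log2 difference ± standard error, with n = 2 arrays in each population. The 3 comparisons share arrays, so they are not independent of each other. In such sorted samples fewer cells of a type and less RNA per cell cannot be told apart. The files mark no background. All 32 measured members had a mean above 5.04, the 25th percentile of all values.

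The array medians lay between 6.18 and 6.28. The sort markers followed the gates: H2-Ab1, a class II gene, measured 13.09 and 13.17 in GM-BMDC, 10.08 and 11.27 in GM-BMM, and 5.81 and 6.35 in M-BMM, and Adgre1, which encodes F4/80, measured 9.39 and 10.91 in GM-BMDC, 12.32 and 12.61 in GM-BMM, and 12.73 and 12.79 in M-BMM. All 8 dendritic cell markers were higher in GM-BMDC than in GM-BMM, and 4 of 7 macrophage markers were lower. The mean over the macrophage markers was 9.30 and 10.09 in the GM-BMDC arrays, 11.05 and 11.13 in GM-BMM, and 10.71 and 10.80 in M-BMM. That over the dendritic cell markers ranged from 10.15 to 10.51 in GM-BMDC, from 6.87 to 7.03 in GM-BMM and from 6.24 to 6.26 in M-BMM. For GM-BMDC set against GM-BMM, limma also called 2 of 4 B lymphocyte and 1 of 6 mast cell markers higher, 1 of 6 fibroblast markers lower, and none of 8 neutrophil or 4 T lymphocyte markers, of which 4 and 1 had an unadjusted p under 0.05. For GM-BMDC set against M-BMM it called 2 of the 4 B lymphocyte markers higher and 1 lower, and 2 of the 6 mast cell markers higher. For GM-BMM set against M-BMM it called 1 B lymphocyte and 1 neutrophil marker lower and 1 fibroblast marker higher. The part of other cell types in the results below was not tested. Of 15 proliferation genes, limma called 0 in GM-BMDC against GM-BMM, with 0 at an unadjusted p under 0.05, and 0 in GM-BMM against M-BMM, with 1 at an unadjusted p under 0.05. It called 2 of them higher in GM-BMDC against M-BMM (7.76% of all genes), where 13 of the 15 had a positive difference (49.6% of all genes). Both GM-BMDC arrays lay above both M-BMM arrays in 8 of the 15 (26.6% of all genes) and below both in 2 (29.8% of all genes). Xist, the RNA of X inactivation, went against the male label at 11.66 and 10.68 in GM-BMDC and 11.58 in GM-BMM replicate 1, with 4.53 to 4.93 in the other 3 arrays. The Y-linked gene Eif2s3y was low in the arrays numbered 1 of both GM-CSF populations, at 3.94 for GM-BMDC and 3.66 for GM-BMM, and at 8.80 to 9.32 elsewhere, so GM-BMDC replicate 2 carried both. Counts without both GM-CSF arrays numbered 1 are therefore given below. Of the arrays then left, GM-BMDC replicate 2 alone had high Xist, so in those counts Xist level and GM-BMDC cannot be told apart. With all 6 arrays, Xist was high in both GM-BMDC arrays and low in both M-BMM arrays. Xist level and population therefore cannot be told apart in GM-BMDC against M-BMM with all arrays either.

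The synthesis genes were highest in GM-BMDC. Of the 17 measured, 15 had group means in the order GM-BMDC, GM-BMM, M-BMM from high to low, an order that 20.1% of all genes showed. Limma called 8 of the 17 higher in GM-BMDC than in GM-BMM and 0 lower, where 4.69% of all genes were called higher and 5.74% lower. It called 13 higher in GM-BMDC than in M-BMM and 0 lower, where 7.76% of all genes were called higher and 8.9% lower. GM-BMM against M-BMM had 1 called higher and 0 lower, where 3.62% of all genes were called higher and 2.57% lower. At an unadjusted p under 0.05, 11, 15 and 8 of the 17 were higher in these comparisons and 0 were lower in any.

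**Figure D1:**
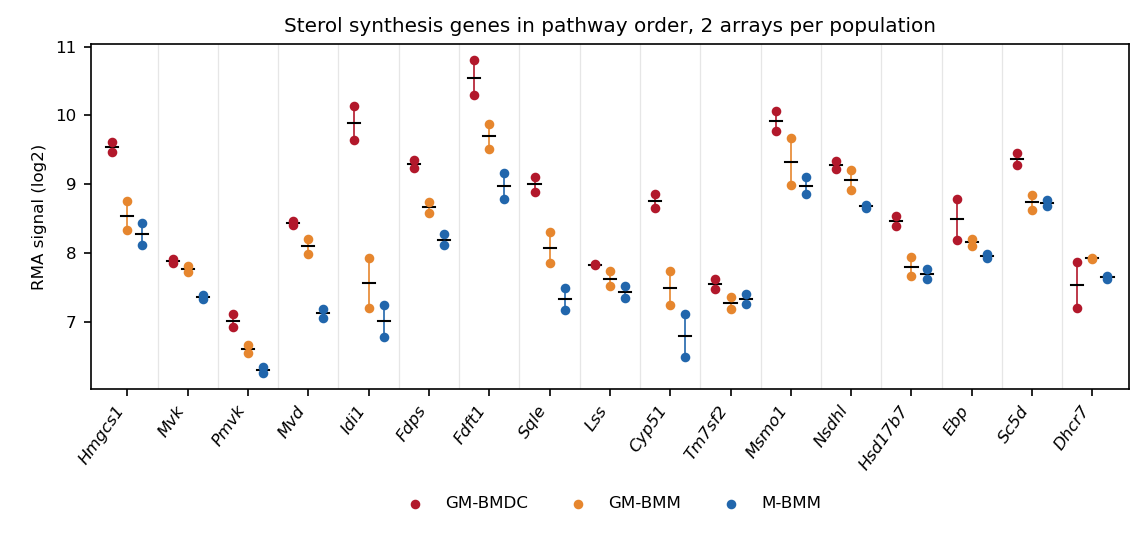
RMA log2 signal of the 17 measured synthesis genes, ordered along the pathway from left to right, with a point for each array and a black bar at the mean of the 2 arrays of a population. Both GM-BMDC points lie above both GM-BMM points for 15 of the 17 genes, Ebp and Dhcr7 being the exceptions.

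The first steps build the isoprenoid unit from acetyl-CoA. Hmgcs1, which encodes the synthase that makes HMG-CoA, measured 9.47 and 9.61 in GM-BMDC, 8.76 and 8.33 in GM-BMM, and 8.43 and 8.11 in M-BMM. GM-BMDC stood apart from both macrophage populations, whose arrays overlapped. The difference was 1.99-fold higher (0.996 ± 0.18) against GM-BMM (limma adjusted p = 0.0133) and 2.41-fold higher (1.27 ± 0.18) against M-BMM (adjusted p = 0.00303). The next enzymes, the kinases encoded by Mvk and Pmvk and the decarboxylase encoded by Mvd, act on mevalonate in turn. Mvk measured 7.86 and 7.92 in GM-BMDC, 7.72 and 7.80 in GM-BMM, and 7.39 and 7.33 in M-BMM. Pmvk measured 6.92 and 7.11 in GM-BMDC, 6.66 and 6.55 in GM-BMM, and 6.34 and 6.25 in M-BMM. Mvd measured 8.41 and 8.47 in GM-BMDC, 8.20 and 7.99 in GM-BMM, and 7.06 and 7.18 in M-BMM. In none of the 3 did the populations overlap. All 3 were called higher in GM-BMDC than in M-BMM: 1.44-fold higher (0.53 ± 0.11), 1.64-fold higher (0.71 ± 0.12) and 2.49-fold higher (1.32 ± 0.12) (limma adjusted p = 0.0155, 0.00704 and 0.000531), and none of them was called between GM-BMDC and GM-BMM (adjusted p = 0.58, 0.0829 and 0.145). Mvd was the 1 synthesis gene called between the macrophage populations, 1.97-fold higher (0.98 ± 0.12) in GM-BMM than in M-BMM (adjusted p = 0.00433, or 0.0643 without M-BMM replicate 1).

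Idi1 encodes the isomerase that makes the second isoprenoid building block, and it showed the largest differences of the 17 between GM-BMDC and either macrophage population. It measured 10.13 and 9.65 in GM-BMDC, 7.92 and 7.19 in GM-BMM, and 7.24 and 6.78 in M-BMM. The mean was 9.89 ± 0.34 over the GM-BMDC arrays, 7.56 ± 0.52 over those of GM-BMM and 7.01 ± 0.32 over those of M-BMM (SD, n = 2 each). Both GM-BMDC arrays lay more than 1 log2 unit above every macrophage array, and the macrophage arrays overlapped. Idi1 was 5.04-fold higher (2.33 ± 0.28) in GM-BMDC than in GM-BMM (limma adjusted p = 0.00252) and 7.36-fold higher (2.88 ± 0.28) than in M-BMM (adjusted p = 0.000614), and both calls held without any 1 of the 6 arrays. A second probe set annotated to Idi1 differed from it by at most 0.092 in any array.

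Farnesyl diphosphate synthase, encoded by Fdps, makes the branch point to both sterols and prenylated proteins. It measured 9.24 and 9.35 in GM-BMDC, 8.74 and 8.58 in GM-BMM, and 8.27 and 8.11 in M-BMM. Fdft1, the squalene synthase gene that commits the pathway to sterols, measured 10.30 and 10.81 in GM-BMDC, 9.88 and 9.52 in GM-BMM, and 9.17 and 8.79 in M-BMM. Sqle, the squalene epoxidase gene, measured 8.89 and 9.10 in GM-BMDC, 8.30 and 7.85 in GM-BMM, and 7.49 and 7.16 in M-BMM. In each of these 3 genes the populations did not overlap and ran in the order GM-BMDC, GM-BMM, M-BMM. Against GM-BMM they were 1.55-fold higher (0.63 ± 0.12), 1.81-fold higher (0.85 ± 0.22) and 1.90-fold higher (0.92 ± 0.19) in GM-BMDC (limma adjusted p = 0.0182, 0.0495 and 0.0214). Against M-BMM they were 2.14-fold higher (1.099 ± 0.12), 2.98-fold higher (1.57 ± 0.22) and 3.19-fold higher (1.67 ± 0.19) (adjusted p = 0.00111, 0.00278 and 0.00111). The Fdft1 call against GM-BMM lay at the threshold and ended whichever array but GM-BMDC replicate 1 was left out, with log2 differences of 0.60 to 1.11 over the arrays left out. The other Fdft1 probe set lay 0.15 to 0.49 below the one used.

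After squalene is closed into lanosterol, the later enzymes trim and saturate the sterol rings. Cyp51, the lanosterol demethylase gene, measured 8.65 and 8.86 in GM-BMDC, 7.74 and 7.24 in GM-BMM, and 7.11 and 6.48 in M-BMM. It was 2.41-fold higher (1.27 ± 0.24) in GM-BMDC than in GM-BMM (limma adjusted p = 0.0169) and 3.89-fold higher (1.96 ± 0.24) than in M-BMM (adjusted p = 0.0017), the second largest difference of the 17 in both. Msmo1 and Nsdhl encode enzymes that remove the methyl groups at carbon 4 together with the product of Hsd17b7. Msmo1 measured 9.78 and 10.06 in GM-BMDC, 9.66 and 8.99 in GM-BMM, and 9.10 and 8.86 in M-BMM. Nsdhl, which lies on the X chromosome, measured 9.22 and 9.34 in GM-BMDC, 9.21 and 8.92 in GM-BMM, and 8.65 and 8.70 in M-BMM. Hsd17b7 measured 8.39 and 8.53 in GM-BMDC, 7.94 and 7.67 in GM-BMM, and 7.77 and 7.62 in M-BMM. In Nsdhl the populations did not overlap, and in the others the macrophage populations did. All 3 were called higher in GM-BMDC than in M-BMM (0.94 ± 0.23, 0.60 ± 0.13 and 0.77 ± 0.14 on the log2 scale), and Hsd17b7 also against GM-BMM (0.66 ± 0.14, limma adjusted p = 0.0237). Against M-BMM, the calls of Mvk, Msmo1 and Nsdhl ended without either GM-BMDC array or either M-BMM array, and those of Pmvk and Hsd17b7 without either M-BMM array. Sc5d, a late desaturase gene, measured 9.28 and 9.45 in GM-BMDC, 8.84 and 8.63 in GM-BMM, and 8.77 and 8.69 in M-BMM. The 2 macrophage populations overlapped in it, and GM-BMDC were 1.55-fold higher (0.64 ± 0.13) than GM-BMM and 1.56-fold higher (0.64 ± 0.13) than M-BMM (limma adjusted p = 0.0212 and 0.0135). The Sc5d call against GM-BMM ended whichever array but GM-BMM replicate 1 was left out, and that against M-BMM without GM-BMDC replicate 2 or either M-BMM array.

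The remaining 4 synthesis genes passed in no comparison. Lss, which encodes the enzyme that closes the ring, ranged from 7.35 to 7.83 over the 6 arrays, the sterol reductase gene Tm7sf2 from 7.18 to 7.62, the X-linked isomerase gene Ebp from 7.92 to 8.78 and Dhcr7, which encodes the last reductase, from 7.21 to 7.93. Dhcr7 was the 1 gene of the 17 with a lower mean in GM-BMDC than in either macrophage population, at log2 differences of -0.38 ± 0.20 against GM-BMM and -0.11 ± 0.20 against M-BMM (limma adjusted p = 0.327 and 0.806). Its GM-BMDC arrays differed, at 7.21 and 7.87, and without GM-BMDC replicate 2 limma called it lower than in GM-BMM (-0.71, adjusted p = 0.0202).

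The count against GM-BMM rested on single arrays more than that against M-BMM. Against GM-BMM, the calls of Hmgcs1, Fdps, Sqle, Cyp51 and Hsd17b7 each ended without either GM-BMDC array and without GM-BMM replicate 2. That of Hsd17b7 also ended without either M-BMM array. The lowest log2 differences of these genes over the arrays left out were 0.78, 0.55, 0.70, 1.01 and 0.52. The 8 synthesis genes called higher in GM-BMDC than in GM-BMM became 2 without GM-BMDC replicate 1, 1 without GM-BMDC replicate 2, 1 without GM-BMM replicate 2 and 5 without either M-BMM array. They became 5 with only these 2 populations fitted and 1 with all 35556 probe sets tested together, while 10 were called without both GM-CSF arrays numbered 1. The 13 called against M-BMM became 11 without GM-BMDC replicate 1, 9 without GM-BMDC replicate 2 and 7 without either M-BMM array, and 14 were called without both GM-CSF arrays numbered 1. In direction, 15 of the 17 genes had both GM-BMDC arrays above both GM-BMM arrays, against 26.7% of all genes. Both GM-BMDC arrays lay above both M-BMM arrays in 16 of the 17, against 26.6% of all genes, and both GM-BMM arrays above both M-BMM arrays in 10 of the 17, against 22.6% of all genes.

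The sequences before the transcription starts of 4 of the genes called higher in GM-BMDC are shown because SREBP sites and CCAAT boxes, which the SREBP partner NF-Y binds, are known from synthesis gene promoters. Windows of 250 bases before the start, from RefSeq on GRCm38.p6, were found for 14 of the 17 synthesis genes and 11 of the 15 other measured members. Fdps, Fdft1, Sqle, Lpl, Npc1, Stard4 and Abcg1 had no window and were not searched. Idi1 is at chr13:8885356-8885605 (plus strand), Cyp51 at chr5:4104698-4104947 (minus strand), Hmgcs1 at chr13:119690101-119690350 (plus strand) and Srebf2, described below, at chr15:82147019-82147268 (plus strand). Each reads 5′ to 3′ on the strand of its gene and ends at the base before the start. Capitals mark CCAAT on either strand (ATTGG where it reads on the other strand) and matches to TCACCNCA or TCACNCCAC, short forms of the sterol regulatory element that can overlap each other.
Idi1: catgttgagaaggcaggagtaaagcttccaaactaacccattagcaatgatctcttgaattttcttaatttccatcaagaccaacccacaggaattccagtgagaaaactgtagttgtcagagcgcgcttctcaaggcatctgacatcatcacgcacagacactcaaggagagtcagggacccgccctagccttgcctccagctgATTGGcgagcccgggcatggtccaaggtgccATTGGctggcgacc
Cyp51: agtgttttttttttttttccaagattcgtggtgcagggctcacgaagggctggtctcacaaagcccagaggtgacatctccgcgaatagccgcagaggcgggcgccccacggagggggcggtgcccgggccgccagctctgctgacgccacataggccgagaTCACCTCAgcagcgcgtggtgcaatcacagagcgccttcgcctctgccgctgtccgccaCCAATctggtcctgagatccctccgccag
Hmgcs1: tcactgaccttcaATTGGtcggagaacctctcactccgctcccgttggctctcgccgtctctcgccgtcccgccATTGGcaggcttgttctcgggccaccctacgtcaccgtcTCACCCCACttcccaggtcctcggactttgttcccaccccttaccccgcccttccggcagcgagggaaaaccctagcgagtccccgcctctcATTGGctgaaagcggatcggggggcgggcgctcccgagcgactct
Srebf2: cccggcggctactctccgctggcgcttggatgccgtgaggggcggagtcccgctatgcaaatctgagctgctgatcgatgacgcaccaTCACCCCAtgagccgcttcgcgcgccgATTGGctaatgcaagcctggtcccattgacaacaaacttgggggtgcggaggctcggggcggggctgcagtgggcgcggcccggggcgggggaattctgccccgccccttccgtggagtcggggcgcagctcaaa
In these windows Hmgcs1 held 3 CCAAT boxes, Idi1 2, and Cyp51 and Srebf2 1 each, while Hmgcs1, Cyp51 and Srebf2 each held 1 match to a short sterol element.

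CCAAT, searched on both strands, was present before a start of 14 of the 14 synthesis genes with a window, 6 of the 11 other members and 37.5% of the 27025 mouse genes with a window. The GC box GGGCGG was present in 13 of the 14, in 8 of the 11 and in 35.4% of all genes. The E-box CACGTG was present in 3 of the 14, in 3 of the 11 and in 6.86% of all genes. The classic sterol regulatory element (ATCACC followed at once by CCAC) matched none of the 14 or the 11 (0.0814% of all genes), TCACNCCAC matched only Hmgcs1 (1.22% of all genes), and TCACCNCA, chosen after the windows were seen, matched Hmgcs1, Cyp51, Hsd17b7, Srebf2 and Apoe (4.18% of all genes). CCAAT stood before starts of genes that were not called too, Lss, Tm7sf2, Ebp and Dhcr7 among them. A match describes letters in the window and not binding.

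**Figure D2:**
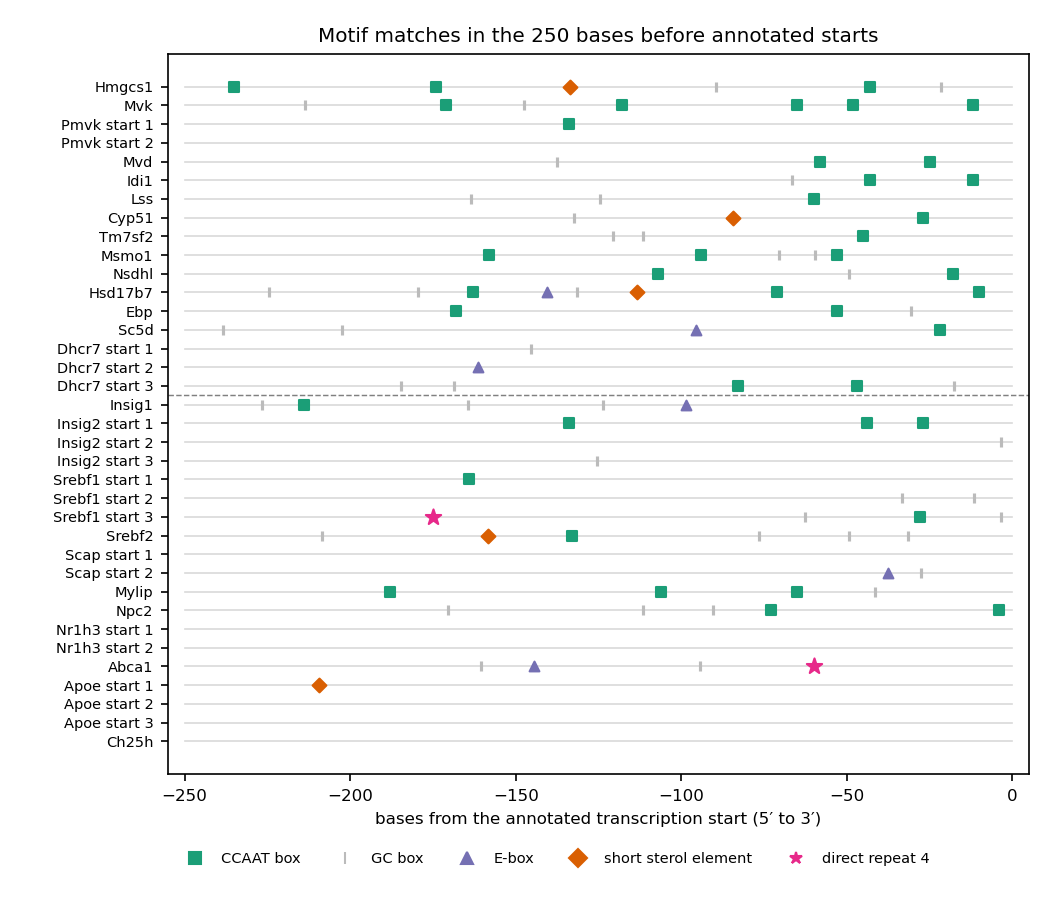
Positions of motif matches on either strand in the 250 bases before each RefSeq start, 1 row per start, with synthesis genes above the dashed line and the other members below it. Every synthesis gene with a window has at least 1 CCAAT box before a start (green squares), and the direct repeat (stars) is in Srebf1 and Abca1 alone of the genes shown.

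The sensor genes did not move as a block. Limma called 1 of the 5 higher and 1 lower for GM-BMDC set against GM-BMM, 1 higher and 1 lower against M-BMM, and 0 in GM-BMM against M-BMM, where 1 had an unadjusted p under 0.05. The shares of all genes called were 4.69% higher and 5.74% lower against GM-BMM and 7.76% and 8.9% against M-BMM. Srebf2, which encodes the SREBP that mainly drives cholesterol synthesis, measured 9.98 and 9.94 in GM-BMDC, 9.26 and 9.15 in GM-BMM, and 8.94 and 8.95 in M-BMM. The 3 populations did not overlap, and it was 1.69-fold higher (0.76 ± 0.11) in GM-BMDC than in GM-BMM (limma adjusted p = 0.00538) and 2.02-fold higher (1.02 ± 0.11) than in M-BMM (adjusted p = 0.000911). Both calls held without any 1 array. Srebf1, whose SREBP-1 proteins favour fatty acid genes, measured 7.77 and 7.93 in GM-BMDC, 7.95 and 8.32 in GM-BMM, and 7.96 and 7.94 in M-BMM. The GM-BMM and M-BMM arrays overlapped in it, and it was not called in any comparison, with a log2 difference of -0.28 ± 0.15 in GM-BMDC against GM-BMM. Scap, the escort gene, ranged from 8.20 to 8.74 and was not called either.

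Of the 2 INSIG genes, 1 passed. Insig1, itself known as an SREBP target, measured 10.12 and 10.22 in GM-BMDC, 9.80 and 9.52 in GM-BMM, and 9.83 and 9.68 in M-BMM. Both GM-BMDC arrays were above the other 4, but the differences of 0.51 ± 0.13 against GM-BMM and 0.41 ± 0.13 against M-BMM did not pass (limma adjusted p = 0.058 and 0.0838). Without GM-BMM replicate 1, without both GM-CSF arrays numbered 1 and without genes of low mean, Insig1 was called against GM-BMM (0.65, 0.69 and 0.51). Insig2 measured 7.74 and 7.90 in GM-BMDC, 8.32 and 8.31 in GM-BMM, and 8.39 and 8.28 in M-BMM. Both GM-BMDC arrays were below the other 4, and Insig2 was 1.41-fold lower (-0.50 ± 0.12) than in GM-BMM and 1.42-fold lower (-0.51 ± 0.12) than in M-BMM (limma adjusted p = 0.0366 and 0.0232). Both Insig2 calls ended without both GM-CSF arrays numbered 1 and without GM-BMDC replicate 1 or either M-BMM array, with log2 differences that stayed between -0.58 and -0.41 against GM-BMM and between -0.59 and -0.43 against M-BMM.

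**Figure D3:**
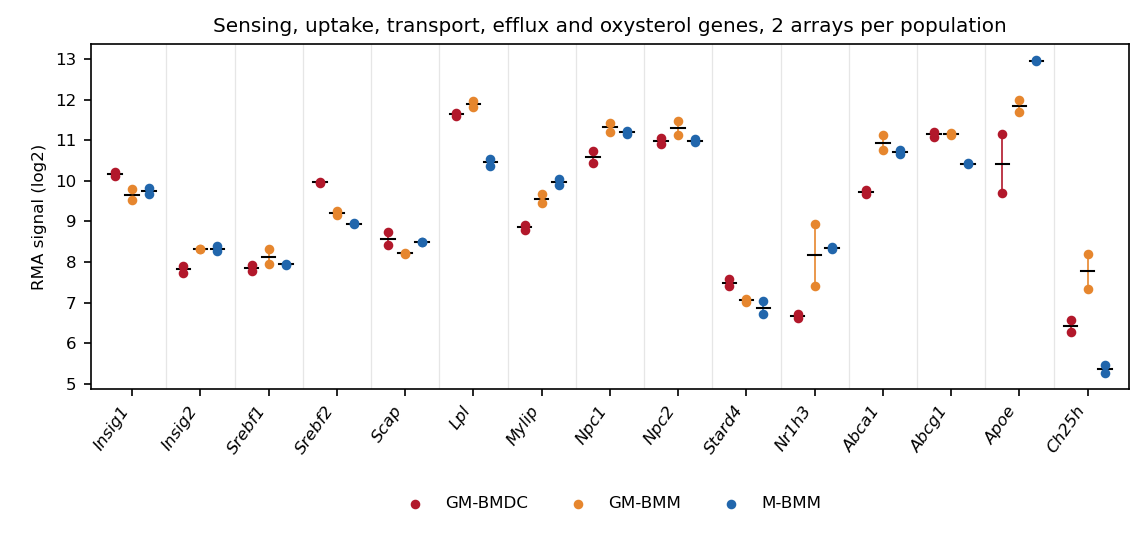
RMA log2 signal of the 15 measured sensing, uptake, transport, efflux and oxysterol genes, with a point for each array and a black bar at the mean of the 2 arrays of a population. Srebf2 is highest in GM-BMDC, Abca1 and Apoe are lowest there, and Ch25h is highest in GM-BMM.

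Outside synthesis, limma called 1 of the 15 other members higher and 5 lower for GM-BMDC set against GM-BMM, 5 higher and 6 lower for GM-BMDC set against M-BMM, and 3 higher and 0 lower in GM-BMM against M-BMM, where 2 were lower at an unadjusted p under 0.05. The shares of all genes called higher and lower were 4.69% and 5.74%, 7.76% and 8.9%, and 3.62% and 2.57% in these comparisons, so the 1 higher of 15 lay near the share of all genes. Both GM-BMDC arrays were below both GM-BMM arrays in 10 of the 15 (24.6% of all genes) and below both M-BMM arrays in 7 (29.8% of all genes). Both GM-BMM arrays were below both M-BMM arrays in 3 (27.2% of all genes). The 5 called lower in GM-BMDC against GM-BMM became 2 without GM-BMDC replicate 1, 2 without either M-BMM array, and 2 with only these 2 populations fitted. The 6 called lower against M-BMM became 3 without GM-BMDC replicate 1 and 2 without either M-BMM array. The 5 called higher against M-BMM became 3 without either GM-BMDC array and 3 without M-BMM replicate 2. The 3 called higher in GM-BMM against M-BMM became 1 without M-BMM replicate 1 and 2 without M-BMM replicate 2.

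Uptake and transport split by gene. Lpl, the secreted lipase that releases fatty acids from lipoproteins and helps cells bind them, measured 11.69 and 11.60 in GM-BMDC, 11.83 and 11.97 in GM-BMM, and 10.55 and 10.37 in M-BMM. Both GM-CSF populations were above M-BMM, 2.27-fold higher (1.18 ± 0.12) for GM-BMDC and 2.71-fold higher (1.44 ± 0.12) for GM-BMM (limma adjusted p = 0.000793 and 0.000701), while GM-BMDC and GM-BMM differed by -0.26 ± 0.12 on the log2 scale (adjusted p = 0.259). Both Lpl calls held without any 1 array. Mylip, the LXR-induced ligase, measured 8.92 and 8.80 in GM-BMDC, 9.46 and 9.67 in GM-BMM, and 10.05 and 9.89 in M-BMM. Its levels ran in the order M-BMM, GM-BMM, GM-BMDC from high to low without overlap, and it was 1.63-fold lower (-0.70 ± 0.13) in GM-BMDC than in GM-BMM (limma adjusted p = 0.0148) and 2.16-fold lower (-1.11 ± 0.13) than in M-BMM (adjusted p = 0.00133). The call against M-BMM held without any 1 array, and that against GM-BMM ended without either population's replicate 2.

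Npc1 and Npc2 encode the pair of proteins that pass cholesterol out of late endosomes and lysosomes. Npc1 measured 10.45 and 10.74 in GM-BMDC, 11.42 and 11.22 in GM-BMM, and 11.23 and 11.17 in M-BMM. It was 1.66-fold lower (-0.73 ± 0.14) in GM-BMDC than in GM-BMM and 1.52-fold lower (-0.61 ± 0.14) than in M-BMM (limma adjusted p = 0.0173 and 0.0244), with the macrophage arrays overlapping. Both Npc1 calls ended without GM-BMDC replicate 1, without either M-BMM array and without both GM-CSF arrays numbered 1. Npc2 ranged from 10.92 to 11.49 and was called in no comparison. Stard4, a cytosolic sterol carrier known as an SREBP target, measured 7.40 and 7.58 in GM-BMDC, 7.10 and 7.01 in GM-BMM, and 7.03 and 6.72 in M-BMM. Its means ran in the order of most synthesis genes, and it was 1.53-fold higher (0.62 ± 0.14) in GM-BMDC than in M-BMM (limma adjusted p = 0.024), a call that ended without either GM-BMDC array or M-BMM replicate 2, and it was not called against GM-BMM (0.43 ± 0.14, adjusted p = 0.109).

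The 2 exporters had different patterns. Abca1, which loads cholesterol onto lipid-poor apolipoproteins, measured 9.67 and 9.77 in GM-BMDC, 10.75 and 11.13 in GM-BMM, and 10.76 and 10.66 in M-BMM. GM-BMDC lay below both macrophage populations, which overlapped, and Abca1 was 2.33-fold lower (-1.22 ± 0.15) than in GM-BMM (limma adjusted p = 0.00254) and 1.99-fold lower (-0.99 ± 0.15) than in M-BMM (adjusted p = 0.00374). Both calls held without any 1 array. Abcg1, which exports cholesterol to mature HDL and is also known for its part in lung macrophages under GM-CSF, measured 11.22 and 11.10 in GM-BMDC, 11.13 and 11.19 in GM-BMM, and 10.42 and 10.44 in M-BMM. GM-BMDC and GM-BMM overlapped (-0.0038 ± 0.11, adjusted p = 0.99), and both were above M-BMM, 1.65-fold higher (0.73 ± 0.11) for GM-BMDC and 1.66-fold higher (0.73 ± 0.11) for GM-BMM (limma adjusted p = 0.00422 and 0.00936). The GM-BMM call ended without either M-BMM array.

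Nr1h3, which encodes LXRα, and Apoe, the secreted cholesterol acceptor, were lowest in GM-BMDC and varied between replicates. Nr1h3 measured 6.71 and 6.61 in GM-BMDC, 7.41 and 8.94 in GM-BMM, and 8.37 and 8.33 in M-BMM. The GM-BMM arrays lay on either side of both M-BMM arrays, so its place against M-BMM turned with the array left out, at 0.59 without GM-BMM replicate 1 and -0.94 without GM-BMM replicate 2. GM-BMDC were 3.23-fold lower (-1.69 ± 0.41) than M-BMM (limma adjusted p = 0.031), a call that ended whichever array of either population was left out, and differed from GM-BMM by -1.51 ± 0.41 (adjusted p = 0.0631). Without GM-BMM replicate 1 or replicate 2, or without both GM-CSF arrays numbered 1, this last difference was called, at -2.28, -0.75 and -2.33. Apoe measured 9.70 and 11.15 in GM-BMDC, 11.70 and 11.999 in GM-BMM, and 12.95 and 12.99 in M-BMM. The 3 populations did not overlap, and GM-BMDC were 5.84-fold lower (-2.55 ± 0.40) than M-BMM (limma adjusted p = 0.00499). The log2 difference was -1.82 without GM-BMDC replicate 1 and -3.27 without GM-BMDC replicate 2, and the call ended without either M-BMM array. Against GM-BMM the difference was -1.43 ± 0.40 (adjusted p = 0.0679). It was -0.70 without GM-BMDC replicate 1, and it was called without GM-BMDC replicate 2 (-2.15, adjusted p = 0.000885) and without both GM-CSF arrays numbered 1 (-0.85, adjusted p = 0.0142). GM-BMM differed from M-BMM by -1.12 ± 0.40 (adjusted p = 0.176), which was called without either GM-BMDC array and with only these 2 populations fitted (adjusted p = 0.00635 each), and without both GM-CSF arrays numbered 1 (-0.97, adjusted p = 0.00471). The mean over the macrophage markers was lowest in GM-BMDC too, at 9.30 and 10.09. Unlike Apoe, it was higher in GM-BMM (11.05 and 11.13) than in M-BMM (10.71 and 10.80). The part of these markers in the result was not tested.

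Short stretches of Abca1 and Srebf1, both known LXR targets, are shown for a loose direct repeat. They held the only matches to it, GGTNA, any 5 bases and GGTNA again, among the 25 members with a window. LXR with its partner RXR binds repeats of this kind. Abcg1 had no window and was not searched. The Abca1 stretch is at chr4:53159941-53159969 and that of Srebf1 at chr11:60210632-60210660, both on the minus strand of GRCm38.p6, written 5′ to 3′ on the strand of the gene with the match in capitals, where it reads on the other strand.
Abca1: cagcgttTGACCGGTAGTAACCccggcgc
Srebf1: acgacagTGACCGCCAGTAACCccagcgc
The match lies at -67 to -53 from the start in Abca1, and at -182 to -168 from RefSeq start 3 in Srebf1. The loose repeat was searched after the stricter one had matched no member with a window. It was found before a start of 0.707% of all genes. The stricter AGGTCA, any 4 bases and AGGTCA again was found in none of the members with a window and in 0.0148% of all genes. The 2 genes with a like match had unlike levels: Abca1 was lower in GM-BMDC in both comparisons, and Srebf1 was called in none.

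Ch25h encodes the enzyme that makes 25-hydroxycholesterol, an oxysterol that restrains SREBP processing. It measured 6.57 and 6.27 in GM-BMDC, 8.21 and 7.33 in GM-BMM, and 5.26 and 5.46 in M-BMM. The populations did not overlap, with GM-BMM highest and M-BMM, at 5.26 and 5.46, just above the low-signal level of 5.04. Ch25h was 2.54-fold lower (-1.35 ± 0.27) in GM-BMDC than in GM-BMM (limma adjusted p = 0.0206), 5.29-fold higher (2.40 ± 0.27) in GM-BMM than in M-BMM (adjusted p = 0.00251) and 2.08-fold higher (1.06 ± 0.27) in GM-BMDC than in M-BMM (adjusted p = 0.0357). Both calls that involve GM-BMDC were lost when any array of GM-BMDC or M-BMM was left out, and the call of GM-BMM against M-BMM ended without M-BMM replicate 1. Gpr183, the receptor for an oxysterol made onward from the product of Ch25h, ran in another order, with 9.18 and 9.47 in GM-BMDC, 6.70 and 6.87 in GM-BMM, and 5.83 and 5.82 in M-BMM. It was 5.82-fold higher (2.54 ± 0.14) in GM-BMDC than in GM-BMM, 1.94-fold higher (0.96 ± 0.14) in GM-BMM than in M-BMM and 11.3-fold higher (3.50 ± 0.14) in GM-BMDC than in M-BMM (limma adjusted p = 9.94e-05, 0.00713 and 1.56e-05), the call between the macrophage populations ending without either M-BMM array. Of the 5 listed oxysterol enzymes and receptor, 1 was called higher in GM-BMDC against GM-BMM, 1 in GM-BMM against M-BMM and 2 in GM-BMDC against M-BMM, where 4.69%, 3.62% and 7.76% of all genes were called higher. Gpr183 was called in all 3, and the other was Cyp27a1, a sterol 27-hydroxylase gene (1.11 ± 0.28, adjusted p = 0.0342, or 0.63 without GM-BMDC replicate 2, and no longer called without either M-BMM array).

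**Figure D4:**
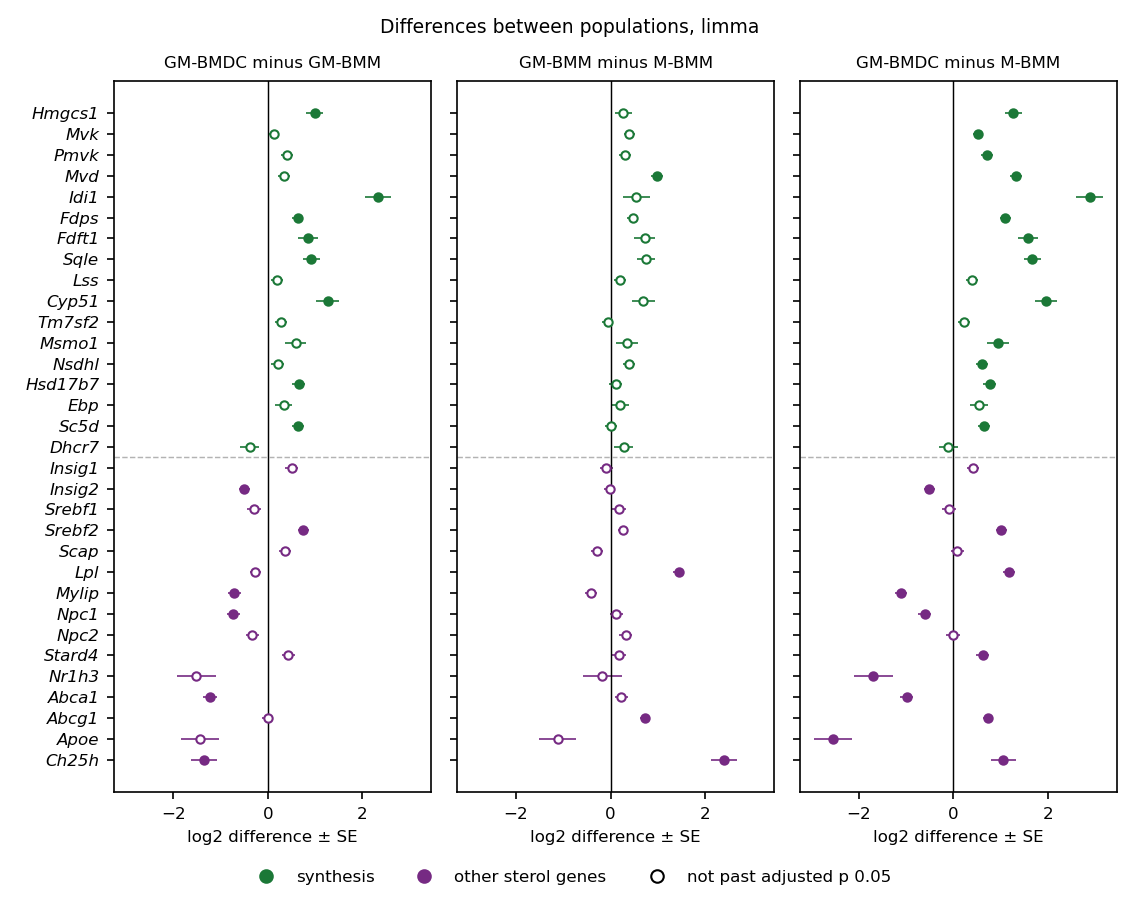
Log2 difference ± standard error from limma for each of the 32 measured members in the 3 comparisons, with synthesis genes in green above the dashed line, the other members in purple, and open circles where the adjusted p did not pass. In GM-BMDC minus GM-BMM, 16 of 17 synthesis genes lie right of 0 and the 4 efflux genes lie left of or at 0.

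Set side by side, the synthesis and efflux genes had medians of opposite sign in GM-BMDC against GM-BMM. The median log2 difference was 0.59 over the 17 synthesis genes, -0.32 over the 5 uptake and transport genes and -1.32 over the 4 efflux genes, where the median of all genes was 0.016. In GM-BMDC against M-BMM the medians were 0.77, -0.0049 and -1.34, where all genes had -0.0024. In GM-BMM against M-BMM they were 0.35, 0.18 and 0.026, where all genes had -0.020. The 5 uptake and transport genes include Mylip, whose product lowers uptake, and no lipoprotein receptor gene. Among the 4 efflux genes is Nr1h3, which encodes LXRα and no exporter. Of these 4, limma called 1 lower in GM-BMDC against GM-BMM (5.74% of all genes), Abca1, and 3 lower against M-BMM (8.9% of all genes). Abcg1 was the exception, as it differed by -0.0038 from GM-BMM and was called higher in GM-BMDC than in M-BMM (7.76% of all genes).

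The same contrast could be read in each array, as the median over a list of each gene's log2 signal minus its mean over the 6 arrays. For synthesis this was 0.37 and 0.58 in GM-BMDC, 0.047 and -0.20 in GM-BMM, and -0.31 and -0.38 in M-BMM. For the 9 uptake, transport and efflux genes together it was -0.54 and -0.30 in GM-BMDC, 0.034 and 0.28 in GM-BMM, and 0.19 and 0.13 in M-BMM. These 9 hold no lipoprotein receptor gene and include Mylip, whose product lowers uptake, so a low median does not stand for low uptake. In GM-BMDC replicate 1 the median, -0.54, was the value of Mylip itself. Both GM-BMDC arrays thus had a high synthesis median and a low median of the 9 genes. In the synthesis median GM-BMM replicate 2 lay close to M-BMM, where GM-BMM replicate 1 did not. For proliferation genes it was 0.032 and 0.18 in GM-BMDC, 0.14 and -0.15 in GM-BMM, and -0.044 and -0.21 in M-BMM, and their part in the synthesis result was not tested.

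**Figure D5:**
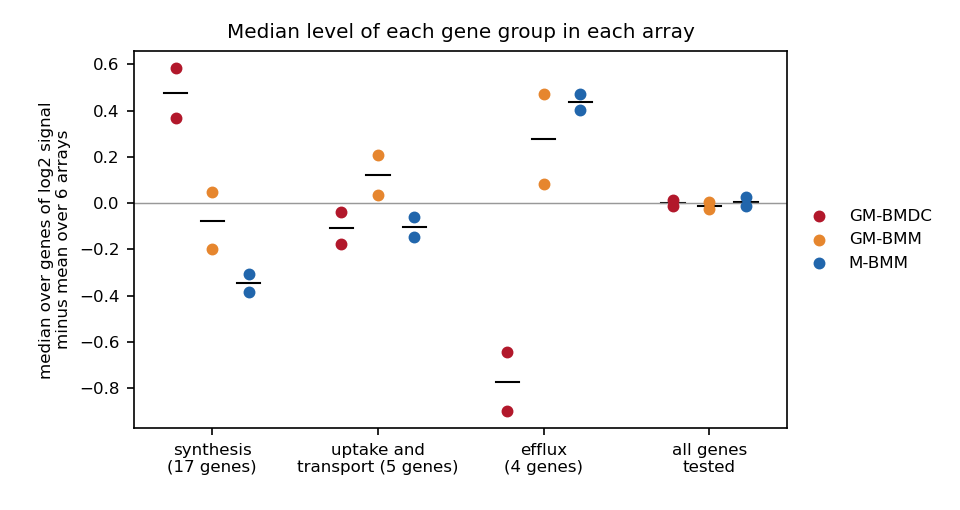
Median over the genes of a list of log2 signal minus the gene's mean over the 6 arrays, with a point for each array and a black bar at the mean of the 2 arrays. The GM-BMDC points are the highest for synthesis, at 0.37 and 0.58, and the lowest for efflux, at -0.90 and -0.64, and all genes together stay near 0.

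Neighbouring pathways did not all follow the synthesis genes. Of 12 measured genes that use isoprenoids outside sterol synthesis, 0 were called higher and 2 lower for GM-BMDC set against GM-BMM, 0 and 3 in GM-BMDC against M-BMM, and limma called 0 in GM-BMM against M-BMM, with 5 at an unadjusted p under 0.05. Of all genes, 5.74% were called lower against GM-BMM and 8.9% against M-BMM. The median log2 difference of the 12 was -0.25 against GM-BMM and -0.28 against M-BMM. The genes called included Coq2, a ubiquinone synthesis gene, at -0.49 ± 0.11 and -0.90 ± 0.11 in GM-BMDC against GM-BMM and M-BMM (limma adjusted p = 0.0298 and 0.00156). Nus1, a subunit of the dolichol-making transferase, was at -0.73 ± 0.13 against GM-BMM, and the ubiquinone side-chain gene Pdss2 and the prenyltransferase gene Pggt1b were at -0.57 ± 0.12 and -0.49 ± 0.14 against M-BMM. Of these calls, that of Coq2 against M-BMM held without any 1 array, and each of the others ended without at least 1 single array, that of Nus1 without either population's replicate 1, that of Pdss2 without GM-BMDC replicate 2 or either M-BMM array, that of Pggt1b whichever GM-BMDC or M-BMM array was left out, and that of Coq2 against GM-BMM whichever array was left out.

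Fatty acid synthesis, the other known arm of SREBP control, had 2 of 13 genes called higher and 0 lower for GM-BMDC set against GM-BMM, 2 and 0 in GM-BMM against M-BMM, and 7 and 1 in GM-BMDC against M-BMM. The shares of all genes were 4.69% and 5.74%, 3.62% and 2.57%, and 7.76% and 8.9%, and the medians of the 13 were 0.21, 0.32 and 0.52 on the log2 scale. Scd1, a fatty acid desaturase gene, measured 10.74 and 10.14 in GM-BMDC, 8.83 and 9.16 in GM-BMM, and 5.57 and 5.66 in M-BMM. It was 10.4-fold higher (3.38 ± 0.21) in GM-BMM than in M-BMM and 2.72-fold higher (1.44 ± 0.21) in GM-BMDC than in GM-BMM (limma adjusted p = 0.000171 and 0.00551), and 28.3-fold higher (4.82 ± 0.21) in GM-BMDC than in M-BMM (adjusted p = 2.28e-05). Fads2, another desaturase gene, was 5.61-fold higher (2.49 ± 0.21) in GM-BMM and 6.50-fold higher (2.70 ± 0.21) in GM-BMDC than in M-BMM (limma adjusted p = 0.000696 and 0.000259). Fasn, the fatty acid synthase gene, measured 9.09 and 9.42 in GM-BMDC, 8.29 and 8.12 in GM-BMM, and 8.03 and 8.13 in M-BMM, and GM-BMDC stood apart from both macrophage populations, 2.07-fold higher (1.05 ± 0.14) than GM-BMM (limma adjusted p = 0.00456). Thus Scd1 and Fads2 were high in both GM-CSF populations and Fasn in GM-BMDC. Each of these calls held without any 1 array.

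Genes of SREBP processing and sterol sensing in the endoplasmic reticulum, 11 of 13 measured, had 1 called higher and 1 lower for GM-BMDC set against GM-BMM, 0 and 2 in GM-BMM against M-BMM, and 1 and 3 in GM-BMDC against M-BMM. Several of these counts are near the shares of all genes called, which were 4.69% and 5.74%, 3.62% and 2.57%, and 7.76% and 8.9%, and the medians of the 11 were -0.12, -0.057 and -0.071. Erlin1, whose product is known to help hold SREBP back, was 1.81-fold higher (0.85 ± 0.14) in GM-BMDC than in GM-BMM (limma adjusted p = 0.00885) and 1.68-fold higher (0.75 ± 0.14) than in M-BMM (adjusted p = 0.00985, a call that ended without either M-BMM array). Gramd1a and Gramd1b encode carriers that bring plasma membrane cholesterol to the endoplasmic reticulum. Gramd1a measured 8.89 and 8.97 in GM-BMDC, 9.28 and 9.86 in GM-BMM, and 10.45 and 10.49 in M-BMM. Gramd1b measured 8.70 and 8.60 in GM-BMDC, 9.06 and 9.11 in GM-BMM, and 9.74 and 9.77 in M-BMM. Both were highest in M-BMM, with GM-BMDC 2.92-fold lower (-1.54 ± 0.18) and 2.15-fold lower (-1.104 ± 0.11) and GM-BMM 1.87-fold lower (-0.90 ± 0.18) and 1.59-fold lower (-0.67 ± 0.11) (limma adjusted p = 0.00149, 0.00063, 0.031 and 0.0122). Against GM-BMM, Gramd1b differed by -0.44 ± 0.11 in GM-BMDC (adjusted p = 0.0444), a call that ended whichever array was left out. The calls of GM-BMM against M-BMM ended without GM-BMM replicate 1 or either M-BMM array.

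Among 12 measured receptors and lipoprotein genes, 1 was called higher and 3 lower for GM-BMDC set against GM-BMM, 3 and 1 in GM-BMM against M-BMM, and 3 and 2 in GM-BMDC against M-BMM. The shares of all genes called were 4.69% and 5.74%, 3.62% and 2.57%, and 7.76% and 8.9%, close to the 1 of 12 called higher against GM-BMM, and the medians of the 12 were -0.45, 0.26 and -0.28. Cd36, a scavenger receptor gene for oxidised lipoproteins and fatty acids, was highest in GM-BMDC, at 11.81 and 11.44 in GM-BMDC, 10.27 and 10.52 in GM-BMM, and 10.24 and 9.78 in M-BMM. It was 2.35-fold higher (1.23 ± 0.20) than in GM-BMM and 3.07-fold higher (1.62 ± 0.20) than in M-BMM (limma adjusted p = 0.00823 and 0.00158). Olr1, another receptor gene for oxidised LDL, separated the cultures, at 10.64 and 9.77 in GM-BMDC, 10.02 and 9.30 in GM-BMM, and 5.67 and 5.66 in M-BMM. It was 23.3-fold higher (4.54 ± 0.31) in GM-BMDC and 15.9-fold higher (3.99 ± 0.31) in GM-BMM than in M-BMM (limma adjusted p = 0.000175 and 0.000512). Msr1, the class A scavenger receptor gene, was highest in GM-BMM, 2.23-fold lower (-1.16 ± 0.22) in GM-BMDC than in GM-BMM and 2.27-fold higher (1.18 ± 0.22) in GM-BMM than in M-BMM (limma adjusted p = 0.0176 and 0.023). The HDL receptor gene Scarb1 was 2.05-fold lower (-1.03 ± 0.26) in GM-BMDC than in GM-BMM (limma adjusted p = 0.0449). Abca7 was 1.90-fold higher (0.93 ± 0.12) in GM-BMM than in M-BMM (limma adjusted p = 0.00511) and also higher in GM-BMDC than in M-BMM (0.96, adjusted p = 0.00187). The lipoprotein receptor gene Vldlr was 2.05-fold lower (-1.04 ± 0.16) in GM-BMDC than in M-BMM (limma adjusted p = 0.00445) and also lower in GM-BMM than in M-BMM (-0.92, adjusted p = 0.0166). Some of these calls ended without single arrays. Those of Msr1 and Scarb1 in GM-BMDC against GM-BMM ended without GM-BMDC replicate 1, among others, which left Scarb1 at -0.59. In GM-BMM against M-BMM, that of Abca7 ended without either M-BMM array, and that of Msr1 whichever array of either population was left out. That of Vldlr in this comparison ended without either GM-BMM array or M-BMM replicate 1. The Abca7 and Vldlr calls of GM-BMDC against M-BMM held without any 1 array.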

How the data were processed

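RNA of each of the 6 sorted samples was hybridised to 1 Affymetrix mouse gene array. The deposited log2 values were made by the authors with RMA in Affymetrix Expression Console 1.1, per the submitters' processing notes. They span 35556 probe sets, of which 21789 were annotated to 1 gene, 1621 to several and 12146 to none in GEO's platform annotation. No scanner signals or detection calls were used, so precision is limited by the 2 arrays per population. Of 999 genes with several probe sets the one with the highest mean was kept, leaving 19938 genes, with low values kept and no pseudocount added. Differences were tested with limma 3.58.1 (lmFit and eBayes, two-sided) in R 4.3.3 over all 6 arrays, and p-values were adjusted by Benjamini-Hochberg over all genes within each comparison. The code was tested on simulated data with known changes. Every member was named, with all 6 values where it was called in at least 1 comparison or its sequence is shown. Of each other pathway list up to 3 called genes with the largest difference in each comparison were named. The members and lists were chosen with earlier results of these data known. Promoter windows came from RefSeq (GRCm38.p6). The alternatives left out single arrays, blocked on the replicate number, fitted 2 populations alone, let the prior variance follow the mean, dropped genes with a low mean, centred the arrays, averaged or kept all probe sets, and left out both GM-CSF arrays numbered 1.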

Additional observations from a re-analysis of the deposited data

How the results depend on the processing

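Against the 6 arrays together, 1203 of 1344 member differences under an alternative kept their call (19 of them, not called either way, changed sign), 118 were no longer called, 22 became called and 1 turned. Of the members called, 3 of 14 in GM-BMDC against GM-BMM (Idi1, Srebf2 and Abca1), 1 of 4 in GM-BMM against M-BMM (Lpl) and 12 of 24 in GM-BMDC against M-BMM stayed called under every alternative. Leaving out 1 array at a time, synthesis genes called higher ranged from 1 to 8 in GM-BMDC against GM-BMM, from 0 to 2 in GM-BMM against M-BMM and from 7 to 13 in GM-BMDC against M-BMM, and those called lower from 0 to 1 in the first (1 without GM-BMDC replicate 2, Dhcr7). Other members called higher ranged from 1 to 2, from 1 to 3 and from 3 to 5 in the same order of comparisons, and those called lower from 2 to 4, from 0 to 1 and from 2 to 6. All genes called ranged from 1102 to 2055 (2079 with all arrays), from 319 to 1347 (1235 with all arrays) and from 1288 to 3412 (3323 with all arrays). With only the 2 populations compared, 1207 genes were called in GM-BMDC against GM-BMM, with 5 synthesis genes higher and 2 other members lower, and 1 other member was lower in GM-BMM against M-BMM. Dropping genes with a low mean gave 2 other members higher in GM-BMDC against GM-BMM. Testing all probe sets gave 1 synthesis gene higher and 1 other member lower in GM-BMDC against GM-BMM, and 3 other members higher and 3 lower in GM-BMDC against M-BMM, where the adjustment runs over more features. Without both GM-CSF arrays numbered 1, 2 other members were higher in GM-BMDC against GM-BMM and 1 was lower in GM-BMM against M-BMM, and Nr1h3 turned to 0.59 in GM-BMM against M-BMM (-0.18 with all arrays). With the replicate number as a block, 7, 1 and 13 synthesis genes were higher and 1963, 1176 and 3060 genes were called, and among the members in GM-BMDC against GM-BMM Fdft1 and Insig2 were no longer called (adjusted p = 0.0639 and 0.0619) while Apoe and Nr1h3 were (adjusted p = 0.0315 and 0.0492). The labels do not say that a number marks a shared animal or culture. Same-numbered arrays did not deviate together over all genes (correlations of 0.024, -0.13 and 0.026). Eif2s3y was low in both GM-CSF arrays numbered 1. Xist differed between the GM-CSF arrays numbered 2, at 10.68 in GM-BMDC and 4.93 in GM-BMM. A pairing was thus neither shown nor settled. The causes of the changed calls were not tested. A group of 2 arrays leaves its spread to be borrowed from the other groups, and a group left with 1 array was assumed to vary like the others.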

Other observations

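Dgat2, Fabp4 and Fabp5, of 8 measured genes of lipid droplets and fatty acid binding, were called higher in GM-BMM than in both other populations. Of the 8, limma called 3 higher and 0 lower in GM-BMM against M-BMM, 1 higher and 3 lower for GM-BMDC set against GM-BMM, and 3 higher and 0 lower for GM-BMDC set against M-BMM, where the shares of all genes called were 3.62% and 2.57%, 4.69% and 5.74%, and 7.76% and 8.9%. Dgat2, which encodes an enzyme of triglyceride synthesis, measured 6.39 and 6.42 in GM-BMDC, 8.53 and 8.87 in GM-BMM, and 6.22 and 6.28 in M-BMM. Fabp4, a fatty acid carrier gene, measured 7.76 and 7.68 in GM-BMDC, 9.63 and 9.55 in GM-BMM, and 7.37 and 6.90 in M-BMM. In both of these the GM-BMM arrays stood far above the other 4. Dgat2 was 4.91-fold lower (-2.30 ± 0.14) in GM-BMDC than in GM-BMM (limma adjusted p = 0.000159) and 5.46-fold higher (2.45 ± 0.14) in GM-BMM than in M-BMM (adjusted p = 0.000135). Fabp4 was 3.65-fold lower (-1.87 ± 0.16) in GM-BMDC than in GM-BMM (limma adjusted p = 0.000688) and 5.46-fold higher (2.45 ± 0.16) in GM-BMM than in M-BMM (adjusted p = 0.000245). Fabp5, another fatty acid carrier gene, differed by -0.54 ± 0.12 in GM-BMDC against GM-BMM (limma adjusted p = 0.031), a call that ended whichever array was left out, and by 1.27 ± 0.12 in GM-BMM against M-BMM (adjusted p = 0.00117). Lipe, which encodes a lipase of stored fat and of cholesterol esters, was instead highest in GM-BMDC, 2.15-fold higher (1.11 ± 0.18) than in GM-BMM (limma adjusted p = 0.00837, a call that ended without GM-BMDC replicate 1).

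The miRNA gene Mir33 lies within the span of Srebf2, which was called higher in GM-BMDC in both of its comparisons. The Mir33 probe set measured 3.25 to 3.58 in the 6 arrays, below the low-signal level of 5.04, and was called in no comparison. At such a level it cannot show whether Mir33 followed Srebf2. Mir33 was chosen for mention because it lies in Srebf2.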
